A study of Mus musculus with 24 samples.

Results

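The data described here are lung RNA from mice on the control diet, 6 libraries after ozone against 6 after filtered air. The libraries were chosen by their labels alone and make up 12 of the 24 libraries of the series; the other 12 come from mice on a diet rich in docosahexaenoic acid (DHA), an omega-3 fatty acid, under the same 2 exposures. Every mouse in the 12 libraries ate the control diet, and the exposure is what the labels give as the difference between the groups. The tissue is whole lung, RNA was extracted with a column kit, and libraries were prepared by a commercial service. The strain, sex and age of the mice, the ozone dose, the length of the exposure and the time from exposure to collection are stated in none of the sources. They also do not say that each library is a separate mouse. The p-values then set the difference between groups only against the spread between libraries, estimated over all 24 libraries of the series.

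Ozone is an oxidant gas that reacts with lipids and proteins of the fluid lining the airways and alveoli, and ciliated cells of the airways and alveolar type 1 cells are its most sensitive targets. Injured epithelium releases alarm signals and chemokines that draw in leukocytes and change the state of resident macrophages. Club cells and alveolar type 2 cells then divide to replace what was lost. RNA from whole lung mixes all of these cells, so more cells of a type and more RNA per cell cannot be told apart here.

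Each of the 12 libraries held between 19145371 and 26156895 counts, and 16153 of 26253 genes were abundant enough to be tested. Levels below are CPM, a gene's counts scaled to a common library size, given as the lowest, median and highest of 6 libraries. Defining lung markers were high in all 12 libraries: the surfactant gene Sftpb stood at 3310 to 4130 CPM in air and 4200 to 5040 CPM after ozone, and the club cell gene Scgb1a1 took 8.42 to 12.3% of all counts. In a principal component analysis of the 12 libraries, the first component (26% of the variance) separated the groups without overlap, from -23.59 to -9.62 in air and from 11.92 to 22.19 after ozone. The second component (14.9%) set air libraries 1 to 3 (11.84 to 20.61) apart from air libraries 4 to 6 (-27.5 to -9.55). On the third (10.7%), ozone library 1 stood at 33.26 and the other 11 between -9.88 and 3.89. The labels give no batch, so many of the results that rest on either set of air libraries or on ozone library 1 are given with and without them.

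After ozone, 1442 genes were higher and 1271 lower than in air at a Benjamini-Hochberg adjusted p under 0.05 (edgeR's quasi-likelihood test), which is 8.93% and 7.87% of the genes tested and 16.8% in both directions. Most changes were small. The median fold was 1.19 among genes called higher and 0.796 among genes called lower, against a median log2 change of -0.01 over all genes tested. Only 104 genes (0.644%) rose at least 2-fold and 35 (0.217%) fell at least 2-fold. Past 4-fold there were 10 genes higher and 1 lower. Level and direction went together: among 1985 genes at 100 CPM or more, 19.1% were called higher and 7.56% lower, whereas among 1341 genes under 1 CPM the shares were 1.86% and 3.06%. For 727 genes (4.5%) every ozone library lay above every air library, and for 527 (3.26%) every ozone library lay below. Without air libraries 1 to 3, 851 genes were called higher and 959 lower, of which 670 and 680 were among those called with all libraries. Without air libraries 4 to 6 the counts were 1647 and 1340, with 998 and 790 shared.

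**Figure D1:**
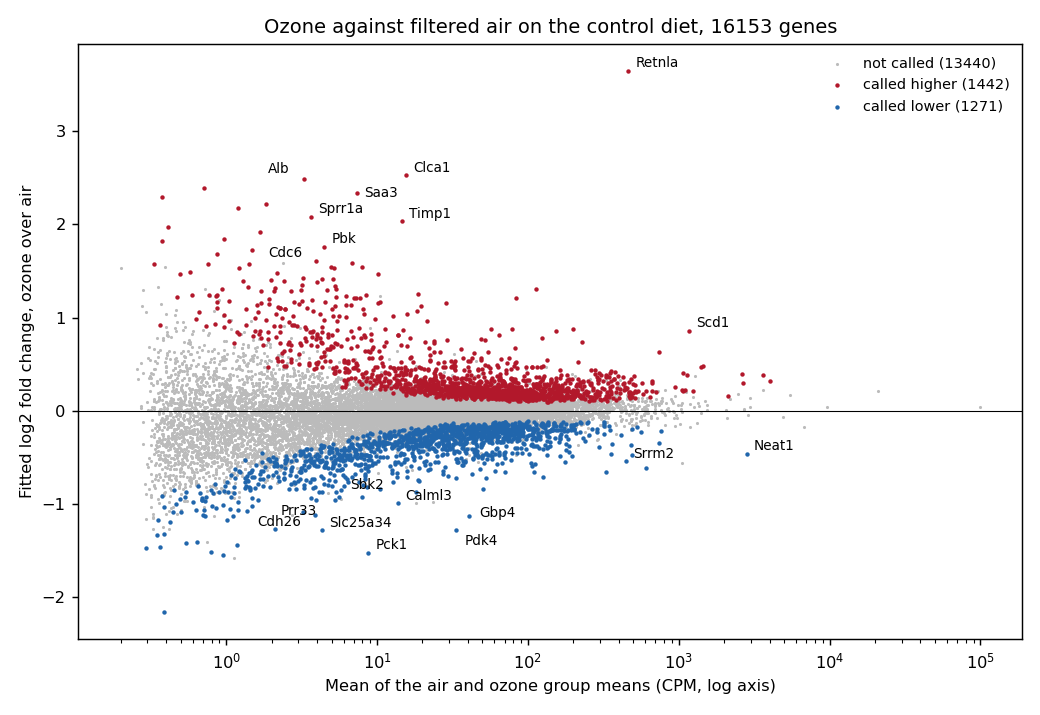
Fitted log2 fold change, ozone over air (y axis), against the mean of the 2 group means in CPM (x axis, log scale) for 16153 genes on the control diet; red points are called higher, blue points lower, grey points not called. Changes past 2-fold (1 on the y axis) are mostly increases (104 against 35), with Retnla at the top.

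The largest increases were in Retnla, secreted defence proteins and cell division genes. Retnla (chr16:48662972-48664825 in mm39), a small secreted protein made by macrophages under type 2 cytokines and by airway epithelium, stood at 38.2, 62.7 and 110.4 CPM in air and at 320.2, 929 and 1385 CPM after ozone. The lowest ozone library was thus above the highest air library, and the fold was 12.5 (log2 3.64 ± 0.30 SE, adjusted p = 3.24e-08). Timp1 (chrX:20736405-20740977), an inhibitor of matrix metalloproteinases, ranged from 3.30 to 7.39 CPM in air and from 15.8 to 29.0 CPM after ozone. Sprr1a (chr3:92391261-92393189), a structural protein of squamous and injured epithelium, ranged from 0.944 to 2.26 CPM in air and from 4.27 to 8.45 CPM after ozone. Neither gene overlapped between groups, and their folds were 4.09 and 4.22 (adjusted p = 3.07e-05 and 0.000438). Saa3, an acute-phase apolipoprotein, went from a median of 2.36 to 11 CPM (5.04-fold, adjusted p = 0.00204). Alb, the albumin gene whose main source is the liver, was at 0.685, 0.812 and 1.96 CPM in air and at 3.69, 5.42 and 7.16 CPM after ozone. Its groups did not overlap, and the fold was 5.61 (log2 2.49 ± 0.28, adjusted p = 5.31e-06). Of 10 liver markers, 4 were tested, Alb was the only one called, the summed level of the 4 was 1.93 to 5.42 CPM in air and 6.78 to 11 CPM after ozone, and Apoa1 was at most 0.656 CPM in any library; the part of liver RNA in this was not tested.

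A pair of the 12 largest increases rested on few libraries. Clca1, a protein secreted with mucus by goblet cells, stood at 1.26, 3.03 and 12.2 CPM in air and at 0.309, 11.5 and 88.3 CPM after ozone, so the ozone libraries lay on both sides of the air libraries. Its fitted fold was 5.77 (log2 2.53 ± 0.71, adjusted p = 0.0147). Fer1l6, a ferlin family gene, ranged from 0.855 to 4.09 CPM in air and from 2.12 to 19.5 CPM after ozone (2.92-fold, adjusted p = 0.0162). Without ozone library 6 the log2 changes were 1.63 (adjusted p = 0.101) and 0.99 (adjusted p = 0.0954), and neither gene was called. Clca1 was also not called without air libraries 1 to 3 (adjusted p = 0.12) or with limma-voom (adjusted p = 0.241). Fer1l6 was also not called without air libraries 4 to 6 (adjusted p = 0.15), with limma-voom (adjusted p = 0.0734) or with the replicate number as a block (adjusted p = 0.054).

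The largest decreases were in genes of fuel use and fat storage, a guanylate-binding protein and some genes of low level. Pck1, the entry enzyme of gluconeogenesis and glyceroneogenesis, stood at 4.63, 13.9 and 24.8 CPM in air and at 3.03, 4.07 and 8.03 CPM after ozone. Pdk4, a kinase that closes the entry of pyruvate into the mitochondrial cycle, stood at 19.8, 40.8 and 84.0 CPM in air and at 8.71, 19.7 and 27.9 CPM after ozone. In both the groups overlapped, and the folds were 0.349 and 0.412 (adjusted p = 0.0175 and 0.00306). Plin4, a lipid droplet coat protein, went from 15.4, 24.5 and 30.8 CPM to 10.4, 12.2 and 17.7 CPM (0.546-fold, adjusted p = 0.000672). Pdia2, a protein disulfide isomerase, fell without overlap, from 6.23, 6.99 and 7.55 CPM to 2.90, 3.89 and 4.69 CPM (0.546-fold, adjusted p = 0.000245). Prr33 did the same, from 5.03 to 8.74 CPM down to 2.66 to 4.99 CPM (0.514-fold, adjusted p = 0.000497). Several of these calls needed air libraries 1 to 3, and Pdk4 was higher in each of these (47.8 to 84.0 CPM) than in air libraries 4 to 6 (19.8 to 33.8 CPM). Without air libraries 1 to 3, Pdk4 was at a log2 change of -0.48 (adjusted p = 0.271) and Pck1 at -0.81 (adjusted p = 0.336). Without air library 1 alone Pck1 was at -1.23 (adjusted p = 0.066). Slc25a34, Cdh26, Calml3, Sbk2 and Ucp3 also lost the call without air libraries 1 to 3, whereas Plin4, Pdia2, Prr33, Gbp4 and Gabre kept it.

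**Figure D2:**
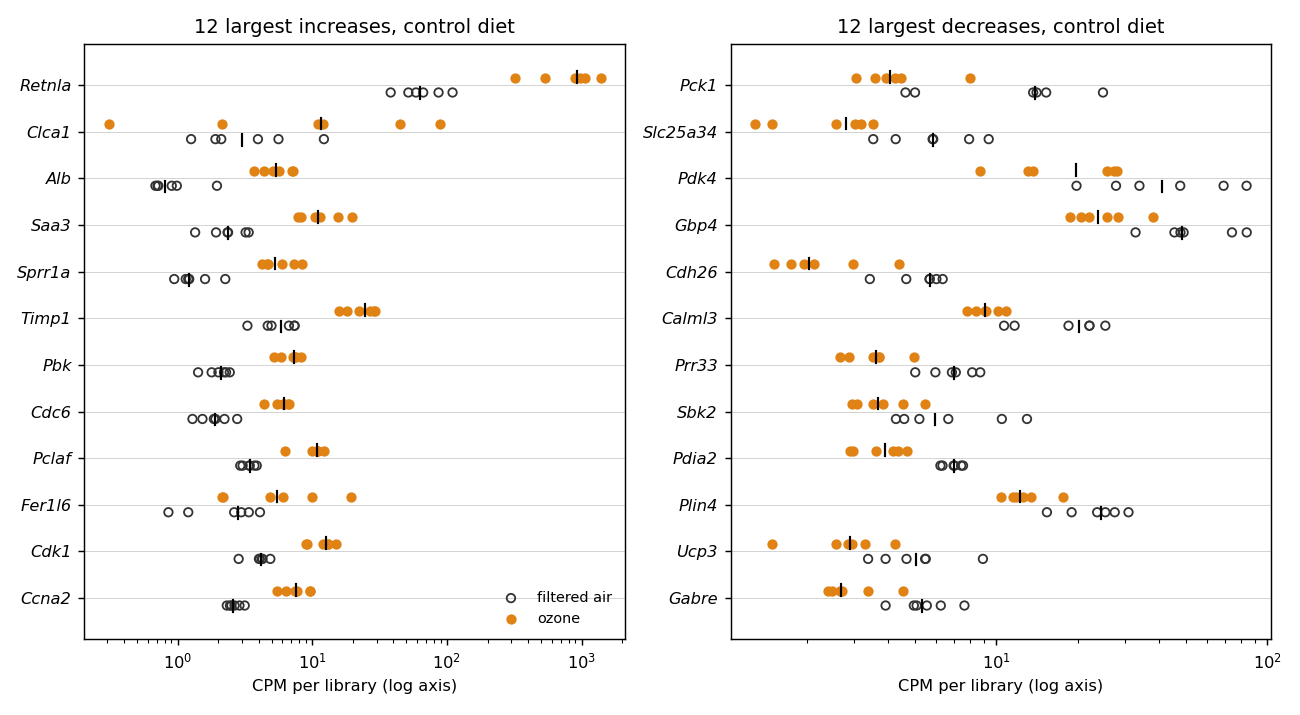
CPM per library (x axis, log scale) for the 12 largest increases and the 12 largest decreases among called genes with at least 5 CPM in the higher group; open circles are the 6 air libraries, orange points the 6 ozone libraries, and black ticks the medians. Retnla, Alb, Saa3, Sprr1a, Timp1 and 5 genes of cell division separate completely, while Clca1 and Fer1l6 spread widely after ozone.

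Genes of cell division rose together. Over 8 lists of this kind and 1 of p53 targets (described below), 146 genes were tested. Of these, 94 were called higher and 0 lower, against 8.93% and 7.87% of all genes, and the 14 p53 targets gave no call. DNA replication starts when origins are licensed by the MCM helicase, which Cdc6 and Cdt1 load, and fired by Cdc45 and the GINS complex. In this list 13 of 20 genes rose, 0 fell, and the median fold was 1.5. Cdc6 (chr11:98798627-98814769) was at 1.29, 1.88 and 2.77 CPM in air and at 4.37, 6.12 and 6.75 CPM after ozone, without overlap (3.05-fold, log2 1.61 ± 0.22, adjusted p = 3.54e-05). Mcm5, a subunit of the helicase, went from 9.37 to 12.2 CPM in air to 18.6 to 26.2 CPM after ozone (2.06-fold, adjusted p = 5.89e-05). Mcm3 was 1.70-fold and Mcm2 1.68-fold higher (adjusted p = 4.89e-05 for each).

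Cdc6 is also a textbook target of the E2F transcription factors, and its promoter is shown because 8 of the 17 promoter windows of the licensing list (47.1%) hold an E2F-type motif, TTTNNCGC on either strand, against 5.17% of all 32851 RefSeq windows of 300 bases in this table and 7.51% of the windows of tested genes. Of the 20 genes, 15 matched a window. The window runs from 250 bases before to 50 after the transcription start at chr11:98907901-98908200 on the plus strand of GRCm38.p6, an older build than the mm39 of the gene coordinates above, and the capitals mark the match, which starts 138 bases before the start site and reads on the opposite strand. A match describes these letters and says nothing of binding.
Cdc6: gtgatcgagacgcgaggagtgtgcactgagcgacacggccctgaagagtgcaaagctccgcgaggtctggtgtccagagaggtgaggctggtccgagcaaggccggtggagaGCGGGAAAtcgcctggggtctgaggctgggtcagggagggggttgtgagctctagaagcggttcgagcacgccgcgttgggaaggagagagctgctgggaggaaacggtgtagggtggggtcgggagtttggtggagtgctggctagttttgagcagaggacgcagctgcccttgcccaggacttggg

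Copying of DNA, nucleotide supply and chromatin assembly moved the same way. Among polymerases, clamp and ligase 13 of 19 rose (median fold 1.32), among nucleotide supply enzymes 14 of 17 (median 1.28), and among chromatin assembly and DNA methylation upkeep genes 9 of 12 (median 1.40), with 0 lower in each. Pcna, the sliding clamp of the polymerases, stood at 46.8, 51.5 and 57.4 CPM in air and at 66.9, 74.4 and 79.9 CPM after ozone. Rrm2, the regulated subunit of ribonucleotide reductase, went from 5.21, 6.36 and 7.59 CPM to 9.36, 14.4 and 20 CPM. Uhrf1, which guides the maintenance of DNA methylation at replicated DNA, went from 4.28, 5.37 and 6.19 CPM to 9.59, 14.3 and 21.2 CPM. None of these 3 genes overlapped between groups, and their folds were 1.41, 2.23 and 2.76 (adjusted p = 4.28e-05, 0.00051 and 1.38e-05). Pclaf, a partner of the clamp, rose 3.01-fold and Hells, a chromatin remodeller, 2.67-fold.

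The genes of mitosis changed by larger folds. Mitotic kinases and the spindle checkpoint had 11 of 13 genes higher (median fold 1.87), kinesins and cytokinesis 14 of 16 (median 1.81), and kinetochore and condensin 12 of 15 (median 1.65), with 0 lower. Cdk1, the kinase that drives entry into mitosis, stood at 2.84, 4.16 and 4.88 CPM in air and at 8.92, 12.5 and 15 CPM after ozone. Its partner Ccna2, cyclin A, went from 2.32, 2.58 and 3.15 CPM to 5.49, 7.55 and 9.70 CPM. The lowest ozone library exceeded the highest air library for both, with folds of 2.91 and 2.88 (adjusted p = 7.65e-05 and 0.000623). Pbk, a mitotic kinase, rose 3.38-fold, Aurka, a spindle pole kinase, 2.13-fold, Birc5, a survivin subunit of the chromosomal passenger complex, 2.47-fold, and Top2a, the topoisomerase that untangles chromosomes, 2.38-fold. Cyclins, cyclin-dependent kinases and their inhibitors gave 8 of 20 higher and 0 lower, with a median fold of 1.14. By contrast 0 of 14 targets of p53, the factor that halts division after DNA damage, were called by edgeR, DESeq2 or limma-voom (3 had an unadjusted p under 0.05), and their median fold was 1.05. Btg2, one of them, stood at 158 to 183 CPM in air and at 167 to 207 CPM after ozone (1.15-fold, adjusted p = 0.146), and was called when the 12 libraries were fitted alone (log2 0.21, adjusted p = 0.0188). Without air libraries 4 to 6, 1 p53 target was called higher and 1 lower. Ccng1 was 1.06-fold higher (adjusted p = 0.361).

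Ect2, the exchange factor that starts the contractile ring of cytokinesis, went from 3.11, 4.08 and 5.60 CPM to 7.80, 9.95 and 13.6 CPM (2.32-fold, log2 1.21 ± 0.26, adjusted p = 0.0022), without overlap. Its promoter is shown for a second motif: 13 of the 16 windows of the kinesin and cytokinesis list (81.2%) hold TTTGAA on either strand, the core of the cell cycle genes homology region, against 17.9% of all windows and 12.6% of those of tested genes. For mitotic kinases it was 5 of 10 (50%). The window is chr3:27153829-27154128 on the minus strand of GRCm38.p6, and capitals mark the 2 matches.
Ect2: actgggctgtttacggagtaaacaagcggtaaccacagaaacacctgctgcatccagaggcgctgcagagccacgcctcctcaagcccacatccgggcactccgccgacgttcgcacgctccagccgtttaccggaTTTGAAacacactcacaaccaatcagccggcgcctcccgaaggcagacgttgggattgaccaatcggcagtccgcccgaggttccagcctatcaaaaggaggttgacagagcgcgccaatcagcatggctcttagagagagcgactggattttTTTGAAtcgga

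Among the lists of cell division, licensing, chromatin assembly and cyclins kept their counts within 1.5 times in each alternative fit. Without air libraries 1 to 3 the counts were 8 for polymerases, 7 for nucleotide supply, 7 for mitotic kinases, 9 for kinesins and 6 for kinetochore genes, and without air libraries 4 to 6 they were 6 for mitotic kinases and 7 for kinesins. Leaving out any single library kept every one of these counts within 1.5 times.

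**Figure D3:**
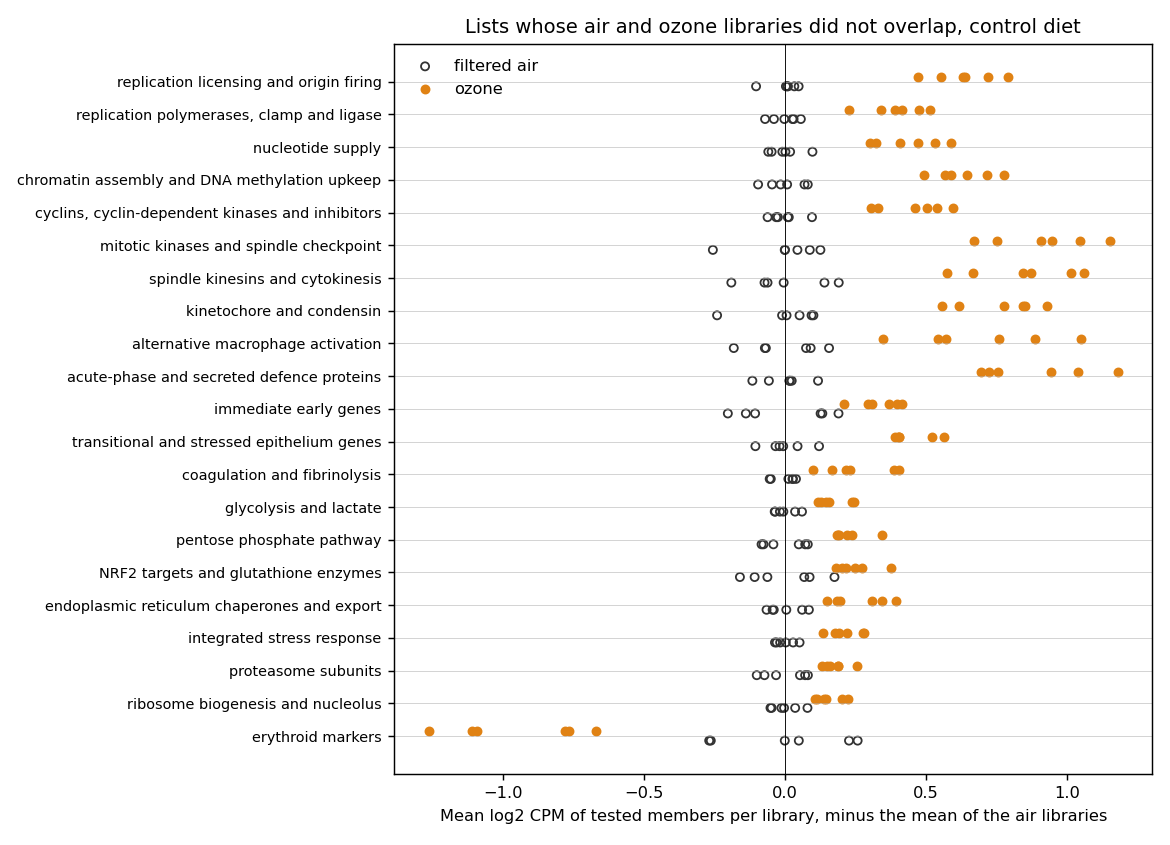
Mean log2 CPM of the tested members per library, minus the mean of the 6 air libraries (x axis), for the 21 of 73 gene lists whose air (open circles) and ozone (orange) libraries did not overlap; these lists were selected for that. Ozone lay above air in 20, including all 8 lists of replication and mitosis, and below in 1, the erythroid markers.

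Over 10 lists of immune cell types and states, 13 of 131 genes were higher and 2 lower, and the share higher was near the 8.93% of all genes tested. Of 13 tested genes of alternative macrophage activation, the state linked to type 2 cytokines and repair, 6 rose and 0 fell, with a median fold of 1.48, so that they make up 6 of the 13. Chil3, a chitinase-like lectin of macrophages, stood at 109.8, 135 and 190.3 CPM in air and at 227, 245 and 316 CPM after ozone. Ccl17, a chemokine for T helper 2 cells, went from 3.06, 4.45 and 7.69 CPM to 7.72, 11.4 and 17 CPM. Both separated without overlap, by 1.84-fold and 2.37-fold (adjusted p = 4.28e-05 and 0.000142). Mrc1, the mannose receptor, was 1.27-fold higher (adjusted p = 0.00134). Of 17 markers of resident alveolar macrophages 1 rose (Atp6v0d2, a subunit of the vacuolar proton pump, 1.44-fold; 0 to 5 over the alternative fits, 0 without air libraries 1 to 3), and of 17 markers of monocytes and interstitial macrophages 4 rose, with a median fold of 1.10 (1 without air libraries 1 to 3). Cd14, the lipopolysaccharide co-receptor, was 1.32-fold higher (adjusted p = 0.00257). Of 15 neutrophil markers 1 was called: Retnlg went from 2.21, 2.44 and 5.13 CPM to 3.51, 6.93 and 11.3 CPM (2.53-fold, adjusted p = 0.0074), and S100a8 ranged from 8.46 to 43.6 CPM in air and from 11.5 to 40.3 CPM after ozone. Retnlg was not called without air libraries 1 to 3 (log2 1.16, adjusted p = 0.0926).

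Lymphocyte and antigen presentation genes gave no call with the main settings. Of 16 T cell, 11 B cell, 13 NK and cytotoxic and 10 MHC class II genes 0 passed edgeR's test, and their median folds were 0.943, 0.966, 0.834 and 0.968. An unadjusted p under 0.05 was seen for 1, 0, 2 and 1 of them, DESeq2 called 1 NK gene lower, and limma-voom called 0. Without air libraries 1 to 3, edgeR called 1 NK gene and 1 T cell gene, Tcf7 (log2 -0.29, adjusted p = 0.015). Without air library 2, it also called 1 of each. With library totals or the 12 libraries alone it called 1 NK gene, and without ozone library 2 it called 1 MHC class II gene. With the main settings, each of the 13 NK and cytotoxic genes had a fitted change below 0 without being called. Of 11 dendritic cell markers 1 fell and 1 rose, against 7.87% and 8.93% of all genes tested. Clec9a, a receptor of cross-presenting dendritic cells, fell from 27.8, 29.3 and 29.7 CPM to 19.7, 22.9 and 26.9 CPM, without overlap (0.787-fold, adjusted p = 0.00663). Fscn1, an actin-bundling protein of mature dendritic cells, rose 1.30-fold with overlap (adjusted p = 0.0412). Its adjusted p was between 0.0579 and 0.114 without air library 2, 3 or 4 or without ozone library 1, 2, 4 or 6. It was 0.231 without air libraries 1 to 3 and 0.0601 without air libraries 4 to 6.

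Some signals that call in leukocytes or act on the epithelium rose, while most members of these lists were not called. Among all genes tested, 8.93% were called higher and 7.87% lower. Ccl2 and Ccl7, neighbouring genes for chemokines that draw monocytes, were at 0.361, 0.692 and 1.16 CPM and at 0.141, 0.580 and 1.36 CPM in air. After ozone they were at 2.07, 2.45 and 3.55 CPM and at 1.98, 2.88 and 4.17 CPM. Each pair of groups was apart, with folds of 3.78 and 4.64 (adjusted p = 5.28e-05 and 4.28e-05). Among 13 CC chemokines 6 rose and 1 fell, with a median fold of 1.44; without air libraries 1 to 3, 3 rose. The 1 that fell, Ccl20, was at 0.225 to 3.94 CPM in air and 0.356 to 1.08 CPM after ozone, and its adjusted p of 0.0416 rose past 0.05 in 8 of the 12 fits that left out 1 library (0.0546 to 0.173). Of 13 CXC and CX3C chemokines 4 rose (2 without air libraries 1 to 3), with the smallest adjusted p for Cxcl15, an epithelial chemokine of the lung that is abundant in air too, at 1037, 1119 and 1431 CPM against 1473, 1610.4 and 1848 CPM after ozone (1.38-fold, adjusted p = 0.000679). Il33, the alarm cytokine of injured epithelium, went from 50.2, 51.0 and 64.9 CPM to 74.7, 94.7 and 143 CPM. Areg, a growth factor that binds the EGF receptor, went from 7.05, 10.5 and 13.3 CPM to 16.1, 17.6 and 25.1 CPM. These groups did not overlap (1.83-fold and 1.82-fold, adjusted p = 0.000657 and 0.000228), and the other 6 tested genes of the interleukin-33 and type 2 list were not called. Ereg, another ligand of this receptor, rose 3.59-fold from a median of 0.369 CPM (adjusted p = 0.00432). Osm, a cytokine of the interleukin-6 family made by myeloid cells, rose 2.05-fold (adjusted p = 0.00115), and Socs3, the feedback inhibitor that this family induces, 1.48-fold (adjusted p = 0.0055, and 0.0817 without air libraries 1 to 3).

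Secreted defence proteins rose in the same libraries, against 8.93% of all genes tested called higher. Of 15 acute-phase and secreted defence genes 11 rose and 0 fell (7 without air libraries 1 to 3), with a median fold of 1.84. Lcn2, a protein that withholds iron from bacteria, stood at 53.2, 60.1 and 90.5 CPM in air and at 127, 147 and 219 CPM after ozone. Lrg1, a secreted leucine-rich glycoprotein, went from 40.3, 45.3 and 68.0 CPM to 96.6, 104 and 185 CPM. Both groups were apart, at 2.47-fold and 2.32-fold (adjusted p = 0.000176 and 0.000369). Hp, haptoglobin, was already at a median of 2239 CPM in air and rose 1.31-fold (adjusted p = 0.00197). For complement, the count moved most with 1 library: 0 of 18 genes were called by edgeR with all libraries and 4 without ozone library 1. With all libraries 3 had an unadjusted p under 0.05, DESeq2 called 1 and limma-voom 2. The edgeR count was 1 without air library 3, air library 5 or ozone library 4, and 1 with the 12 libraries alone. C3, the central component, stood at 925 to 1326 CPM in air and at 646 CPM in ozone library 1 against 1490 to 1730 CPM in the other 5, with an adjusted p of 0.0892 (1.30-fold) with all libraries and 0.00102 (log2 0.53) without that one. C4b behaved alike, at 165 CPM in ozone library 1 and 450 to 586 CPM in the others, with an adjusted p of 0.229 with all libraries and 0.00568 without it.

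Most of the GTPases that interferon-gamma induces went the other way. Of 14 interferon-gamma GTPases, proteins that attack the vacuoles of intracellular microbes, 11 fell and 0 rose, with a median fold of 0.706, against 7.87% of all genes. Gbp4 (chr5:105263633-105287453) stood at 32.7, 48.5 and 84.1 CPM in air and at 18.8, 23.8 and 37.8 CPM after ozone, with 1 air library (32.7 CPM) within the ozone range. Gbp9 went from 79.3, 85.2 and 110.5 CPM to 48.5, 65.5 and 69.2 CPM, without overlap. Their folds were 0.459 and 0.696 (adjusted p = 0.00105 and 0.000707). The count depended on single libraries: it was 4 without air library 1, 7 without air library 6, 7 without ozone library 4, 5 without air libraries 1 to 3 and 7 without air libraries 4 to 6. Gbp4 and Gbp9 were called in each of these fits. Of 18 type I interferon response genes 4 fell and 1 rose. Their median fold was 0.848, and 3 of the 18 had a fitted change above 0. Rsad2, an antiviral enzyme, fell to 0.632-fold (adjusted p = 0.00313) and Stat2, a signal carrier of the pathway, to 0.777-fold (adjusted p = 0.00583). The 1 called higher was Ifit3, another antiviral protein, at 1.28-fold (adjusted p = 0.00632, and 0.0568 without air libraries 4 to 6). The count that fell was 2 without air library 1, 2 without ozone library 3 and 1 without air libraries 1 to 3, where Rsad2 was not called (log2 -0.42, adjusted p = 0.121).

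The promoter of Gbp7 is shown because 9 of the 10 windows found for the GTPase list (90%) hold the core of the interferon-stimulated response element, TTTC, 2 bases, TTTC on either strand, against 3.44% of all windows. Gbp7 itself went from 60.9, 68.3 and 98.8 CPM to 42.8, 55.8 and 60.1 CPM (0.728-fold, adjusted p = 0.0152; 0.0564 without air library 1 and 0.064 without air libraries 1 to 3). Its window is chr3:142530086-142530385 on the plus strand of GRCm38.p6, and the match in capitals starts 53 bases before the start site.
Gbp7: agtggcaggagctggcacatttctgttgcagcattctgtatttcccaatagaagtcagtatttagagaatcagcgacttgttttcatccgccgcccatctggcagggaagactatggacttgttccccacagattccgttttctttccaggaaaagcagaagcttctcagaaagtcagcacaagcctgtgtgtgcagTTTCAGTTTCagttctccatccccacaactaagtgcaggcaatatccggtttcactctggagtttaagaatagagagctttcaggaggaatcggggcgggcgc

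In the epithelium, many alveolar type 2 and transitional genes rose, against 8.93% of all genes tested. Of 16 surfactant and alveolar type 2 genes 8 rose and 0 fell (median fold 1.2). Sftpa1, a collagen-like surfactant protein that binds microbes, stood at 2911, 3053 and 3549 CPM in air and at 3818, 4114 and 4442 CPM after ozone, and Sftpd, its relative, at 804, 893 and 1091 against 1106, 1208 and 1312 CPM. Both were without overlap (1.30-fold and 1.33-fold, adjusted p = 0.000305 and 0.000365). Sftpb rose by 0.32 ± 0.06 (SE) on the log2 scale (adjusted p = 0.00082). Of 15 alveolar type 1 markers 3 rose and 1 fell (1 rose without air libraries 1 to 3): Pdpn rose 1.17-fold and Vegfa, the endothelial growth factor that these cells supply, fell to 0.863-fold (adjusted p = 0.00512 and 0.00493). Pdpn was not called without air libraries 1 to 3 (log2 0.15, adjusted p = 0.12).

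The list of transitional and stressed epithelium, the state between type 2 and type 1 cells after injury, had 14 of 19 genes higher and 1 lower (median fold 1.28). Krt8 and Krt19, keratins of simple epithelium, stood at 228 to 275 and 205 to 262 CPM in air and at 305 to 343 and 302 to 348 CPM after ozone. Lgals3, galectin-3, went from 96.3, 108 and 124 CPM to 147, 159 and 174 CPM. All 3 separated, with folds of 1.28, 1.35 and 1.46 (adjusted p = 0.00376, 0.00114 and 0.000176). The 1 that fell was Tm4sf1 (0.895-fold, adjusted p = 0.0165; 0.12 without air libraries 4 to 6).

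Airway genes were mixed, and most were not called. Over all genes tested, 8.93% were called higher and 7.87% lower. Of 15 club cell secretory genes 2 rose, Retnla and Hp, which other lists above also hold, and 1 fell, Scgb3a1, a secretoglobin, from 418, 595 and 680.0 CPM to 306, 439 and 459 CPM (0.72-fold, adjusted p = 0.00932; not called without air libraries 1 to 3). Of 13 goblet cell and mucus genes 4 rose and 0 fell, 2 rose without ozone library 6, and 3 rose and 1 fell without air libraries 4 to 6. Muc1, a membrane-bound mucin, went from 229, 250.1 and 287 CPM to 312, 338 and 364 CPM, without overlap (1.33-fold, adjusted p = 0.000121), and Slc26a4, an anion exchanger of mucous airways, rose 2.31-fold (adjusted p = 0.00105). Of 16 motile cilia genes 3 fell and 0 rose (median fold 0.907), with Cfap44, an axoneme protein, at 48.9, 73.9 and 96.3 CPM in air and 40.8, 46.9 and 53.7 CPM after ozone (0.639-fold, adjusted p = 0.00114). This count was 0 without air libraries 1 to 3, where 1 gene was called higher, 10 without air libraries 4 to 6 and 5 without air library 6.

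Vessel and stroma markers showed few calls, and repair proteins more, where 8.93% of all genes tested were called higher and 7.87% lower. Of 18 capillary and 17 fibroblast markers 0 were called by edgeR, at median folds of 0.935 and 1.03. An unadjusted p under 0.05 was seen for 3 and 2 of them, DESeq2 called 1 and 0, and limma-voom 1 and 0. Cd36, a fatty acid transporter of capillaries, stood at 927 to 1077 CPM in air and at 869.6 to 1033 CPM after ozone (adjusted p = 0.464). Of 17 arterial, venous and lymphatic markers 1 rose, Pdpn, which lymphatic vessels express too, and 2 fell (0 and 1 without air libraries 1 to 3). Sox17, an arterial transcription factor, fell to 0.742-fold (adjusted p = 0.00222), with the call lost without air libraries 4 to 6 (log2 -0.26, adjusted p = 0.0663). Of 22 matricellular and repair proteins 7 rose and 1 fell (3 rose without air libraries 1 to 3). Tnc, tenascin C, a matrix protein of wounds, went from 7.44, 8.32 and 10 CPM to 11.3, 18 and 22 CPM. Thbs1, thrombospondin 1, went from 94.9, 110.1 and 121 CPM to 129, 204 and 285 CPM, whereas its relative Thbs3 fell from 74.4, 80.3 and 93.9 CPM to 51.1, 57.7 and 62.4 CPM. None of the 3 overlapped (2.02-fold, 1.80-fold and 0.705-fold, adjusted p = 0.00404, 0.000691 and 0.000322). Of 18 coagulation and fibrinolysis genes 6 rose and 0 fell (3 without air libraries 1 to 3). Collagen chains gave 2 of 20 higher, and between 0 and 6 over the alternative fits. The count was 0 without air libraries 1 to 3, air library 4 or ozone library 3. It was 1 without air library 3, and 4 without air library 6 or ozone library 1. Without air libraries 4 to 6, the 2 called chains, Col8a1 and Col12a1, lost their call (adjusted p = 0.11 and 0.125).

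Lipid synthesis genes rose together, where 8.93% of all genes tested were called higher and 7.87% lower. Of 23 genes of cholesterol synthesis and uptake 15 rose and 0 fell (median fold 1.26; 6 without air libraries 4 to 6). Fdps, which makes the isoprenoid precursor of cholesterol, stood at 31.6, 34.0 and 38.4 CPM in air and at 46.0, 51.8 and 66.0 CPM after ozone. Cyp51, the lanosterol demethylase, went from 35.8, 41.5 and 50.8 CPM to 54.7, 65.4 and 81.3 CPM. Both separated, at 1.54-fold and 1.55-fold (adjusted p = 0.000142 and 0.000201). Of 21 fatty acid synthesis, desaturation and elongation genes 11 rose and 0 fell (median fold 1.2). Scd1, the stearoyl desaturase, had the fifth largest gain in mean level among called genes, 679 CPM, behind Sftpa1 (954 CPM), Sftpb (886 CPM), Retnla (791 CPM) and Hp (709 CPM). It stood at 765, 787 and 1103 CPM in air and at 948, 1544 and 2237 CPM after ozone (1.81-fold, adjusted p = 0.00222), with overlap through air library 5. Fads1, which makes arachidonic acid and its omega-3 counterpart, rose 1.28-fold without overlap (adjusted p = 0.000164). Of 25 genes of fatty acid oxidation and PPAR targets 4 fell and 0 rose, with a median fold of 0.936. Acot1, a cytosolic acyl-CoA thioesterase, went from 48.9, 64.8 and 84.8 CPM to 27.5, 41.5 and 47.5 CPM (0.608-fold, adjusted p = 0.00113). The count that fell was 9 without air libraries 4 to 6 and 0 without air libraries 1 to 3, where 1 gene was called higher and Acot1 was at -0.49 (adjusted p = 0.0516).

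Some genes of sugar metabolism and antioxidant defence rose, by small folds, against 8.93% of all genes tested called higher. Of 20 glycolysis and lactate genes 7 rose (median fold 1.13) and of 9 pentose phosphate genes 4 rose (median 1.15), with 0 lower in both. Ldha, lactate dehydrogenase A, went from 302, 322 and 361 CPM to 397, 419 and 491 CPM (1.34-fold, adjusted p = 3.78e-05), and Pgk1, a kinase of glycolysis, from 32.7, 33.8 and 37.7 CPM to 41.9, 45.9 and 52.8 CPM (1.35-fold, adjusted p = 1.38e-05). Taldo1, the transaldolase of the pentose phosphate pathway that regenerates NADPH, rose 1.27-fold (adjusted p = 0.00161). All 3 genes separated without overlap. Of 25 NRF2 targets and glutathione enzymes, the antioxidant programme, 9 rose and 0 fell (median fold 1.18). This count was 3 without air libraries 1 to 3, 5 without air library 1, 5 without air library 4 and 4 without ozone library 1. Sod2, the mitochondrial superoxide dismutase, stood at 116, 128 and 135 CPM in air and at 148, 157 and 170.4 CPM after ozone, without overlap (1.24-fold, adjusted p = 4.28e-05), and was called in every fit. Tfrc, the transferrin receptor that brings iron into dividing cells, went from 51.3, 64.5 and 75.6 CPM to 94.6, 100.1 and 112 CPM (1.59-fold, adjusted p = 1.38e-05).

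Protein folding and turnover genes rose by small folds, where 8.93% of all genes tested were called higher and 7.87% lower. Of 21 endoplasmic reticulum chaperones and export genes 15 rose and 0 fell (median fold 1.2), and the count stayed within 1.5 times in each alternative. Pdia4 and Pdia3, disulfide isomerases of the endoplasmic reticulum, stood at 92.3 to 109 and 499.8 to 536 CPM in air and at 120.5 to 142 and 599 to 672 CPM after ozone. Sdf2l1, a cofactor of the chaperone BiP, went from 12.6, 15.6 and 18.5 CPM to 20.4, 26 and 32.8 CPM. Each separated, by 1.28-fold, 1.23-fold and 1.67-fold (adjusted p = 6.69e-05, 3.36e-05 and 0.000175). Of 26 proteasome subunits 21 rose and 0 fell, with a median fold of 1.14 (6 without air libraries 1 to 3), and Psmd14, the deubiquitinase of its lid, rose by 0.32 ± 0.05 (SE) on the log2 scale (adjusted p = 0.000193). Of 16 integrated stress response genes 4 rose and 1 fell (2 and 0 without air libraries 1 to 3). Psat1, an enzyme of serine synthesis, went from 11.5, 12.3 and 12.8 CPM to 19.5, 21.1 and 23.2 CPM (1.72-fold, adjusted p = 0.000487). Of 18 cytosolic heat shock genes 1 rose, at a median fold of 1.02, and 0 rose without air library 4 or 6 or without ozone library 3 or 6.

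Calr, the calcium-binding chaperone of glycoproteins, stood at 405, 448 and 467 CPM in air and at 509, 564 and 659 CPM after ozone, without overlap (1.30-fold, log2 0.38 ± 0.07, adjusted p = 0.000438). Its promoter holds the letters of the ER stress response element, CCAAT, 9 bases, CCACG on either strand, found in 7 of the 19 windows of the chaperone list (36.8%) and in 0.119% of all windows. The window is chr8:84846882-84847181 on the minus strand of GRCm38.p6, and the match in capitals starts 162 bases before the start site.
Calr: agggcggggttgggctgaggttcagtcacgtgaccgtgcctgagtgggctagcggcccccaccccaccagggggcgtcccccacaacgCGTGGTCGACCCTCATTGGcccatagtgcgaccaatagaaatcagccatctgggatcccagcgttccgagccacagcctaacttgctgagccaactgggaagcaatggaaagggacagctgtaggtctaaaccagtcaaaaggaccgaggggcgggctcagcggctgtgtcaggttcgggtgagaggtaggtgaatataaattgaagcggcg

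The same search gave smaller shares elsewhere. Of the windows of the cholesterol list 1 of 19 (5.26%) held the sterol response element TCACNCCAC, against 1.24% of all windows and 1.19% of those of tested genes. Among NRF2 targets, 5 of 25 (20%) held TGACNNNGC, the core of the antioxidant response element, against 12.4% and 14.2%. In the acute-phase list 2 of 12 (16.7%) held the STAT-type motif TTCNNNGAA against 8.3%. Among windows of called members the counts were 1 of 11, 1 of 8 and 1 of 9 for the cholesterol, NRF2 and acute-phase lists.

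Ribosomal proteins showed how far a list could turn on the air libraries. With all libraries, 8.93% of all genes tested were called higher and 7.87% lower. Of 76 cytosolic ribosomal proteins 1 rose and 2 fell with all libraries, at a median fold of 1.00. Without air libraries 1 to 3, 24 were called lower, and without air libraries 4 to 6, 34 were called higher. Respiratory chain subunits gave 5 of 30 higher and 0 lower, 13 without air libraries 4 to 6 and 3 without air libraries 1 to 3. The count was between 1 and 3 without air library 3, air library 4 or any of ozone libraries 1, 2, 3, 5 and 6.

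Several abundant nuclear genes fell, where 7.87% of all genes tested were called lower. Srrm2, a large scaffold protein of splicing bodies, stood at 469, 542 and 559 CPM in air and at 341, 359.9 and 386 CPM after ozone. Rsrp1, an arginine and serine rich nuclear protein, went from 383, 409 and 455 CPM to 271, 307 and 319 CPM, and the long non-coding RNA Neat1 from 2790.2, 3318 and 3661 CPM to 2293, 2329 and 2597 CPM. Each of the 3 lay lower in every ozone library than in any air library (0.688-fold, 0.728-fold and 0.728-fold, adjusted p = 5.27e-06, 5.27e-06 and 0.000654). The list of SR splicing factors, Clk kinases and cold-induced genes had 7 of 20 lower and 0 higher, with a median fold of 0.917; 4 were lower and 2 higher without air libraries 4 to 6, and 11 were lower with library totals in place of scaling factors. Neat1 had the largest loss in mean level of the called genes, with a difference of -891 CPM.

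Some markers of tissues that can be carried along with lung fell, where 7.87% of all genes tested were called lower. Of 11 cardiac muscle markers, which the walls of mouse pulmonary veins also express, 2 fell and 0 rose, each of the 11 had a fitted change below 0, and their summed level was 1780 to 2970 CPM in air and 1250 to 2080 CPM after ozone. The count was 0 without air libraries 1 to 3, without air library 1 and without air library 2, and 1 without ozone library 2 or 4. Myh6, the atrial myosin, stood at 493 to 1082 CPM in air and 378 to 611 CPM after ozone (0.656-fold, adjusted p = 0.0161), at -0.49 (adjusted p = 0.0577) without air library 1, -0.47 (adjusted p = 0.0562) without air library 2 and -0.14 (adjusted p = 0.615) without air libraries 1 to 3. Of 10 adipocyte markers 2 fell and 0 rose, with summed levels of 145 to 238 CPM in air and 108 to 169 CPM after ozone. The count that fell was 1 without air library 1, 4 without ozone library 6, and 5 with limma-voom or the 12 libraries alone. Without air libraries 1 to 3, Plin4 kept its call and Pck1 did not (adjusted p = 0.336). Adipoq, the hormone that defines the cell type, was at 8.21 to 17.4 CPM in air and 5.41 to 12.8 CPM after ozone. Pck1 and Plin4, named above, are expressed by adipocytes as well, and the part of these cells in their decrease was not tested. Of 8 erythroid markers 4 were tested and 2 fell, with a summed level of the 4 of 93.9 to 158 CPM in air and 59.4 to 112 CPM after ozone. Slc4a1, an anion exchanger of red cells, went from 1.82, 3.01 and 4.53 CPM to 0.965, 1.30 and 1.39 CPM, without overlap (0.416-fold, adjusted p = 0.0125). It was not called without air libraries 1 to 3 (log2 -1.19, adjusted p = 0.0774); Hbb-bs, a defining globin gene, was listed at 0 in all 12 libraries. The part of blood content in this was not tested.

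**Figure D4:**
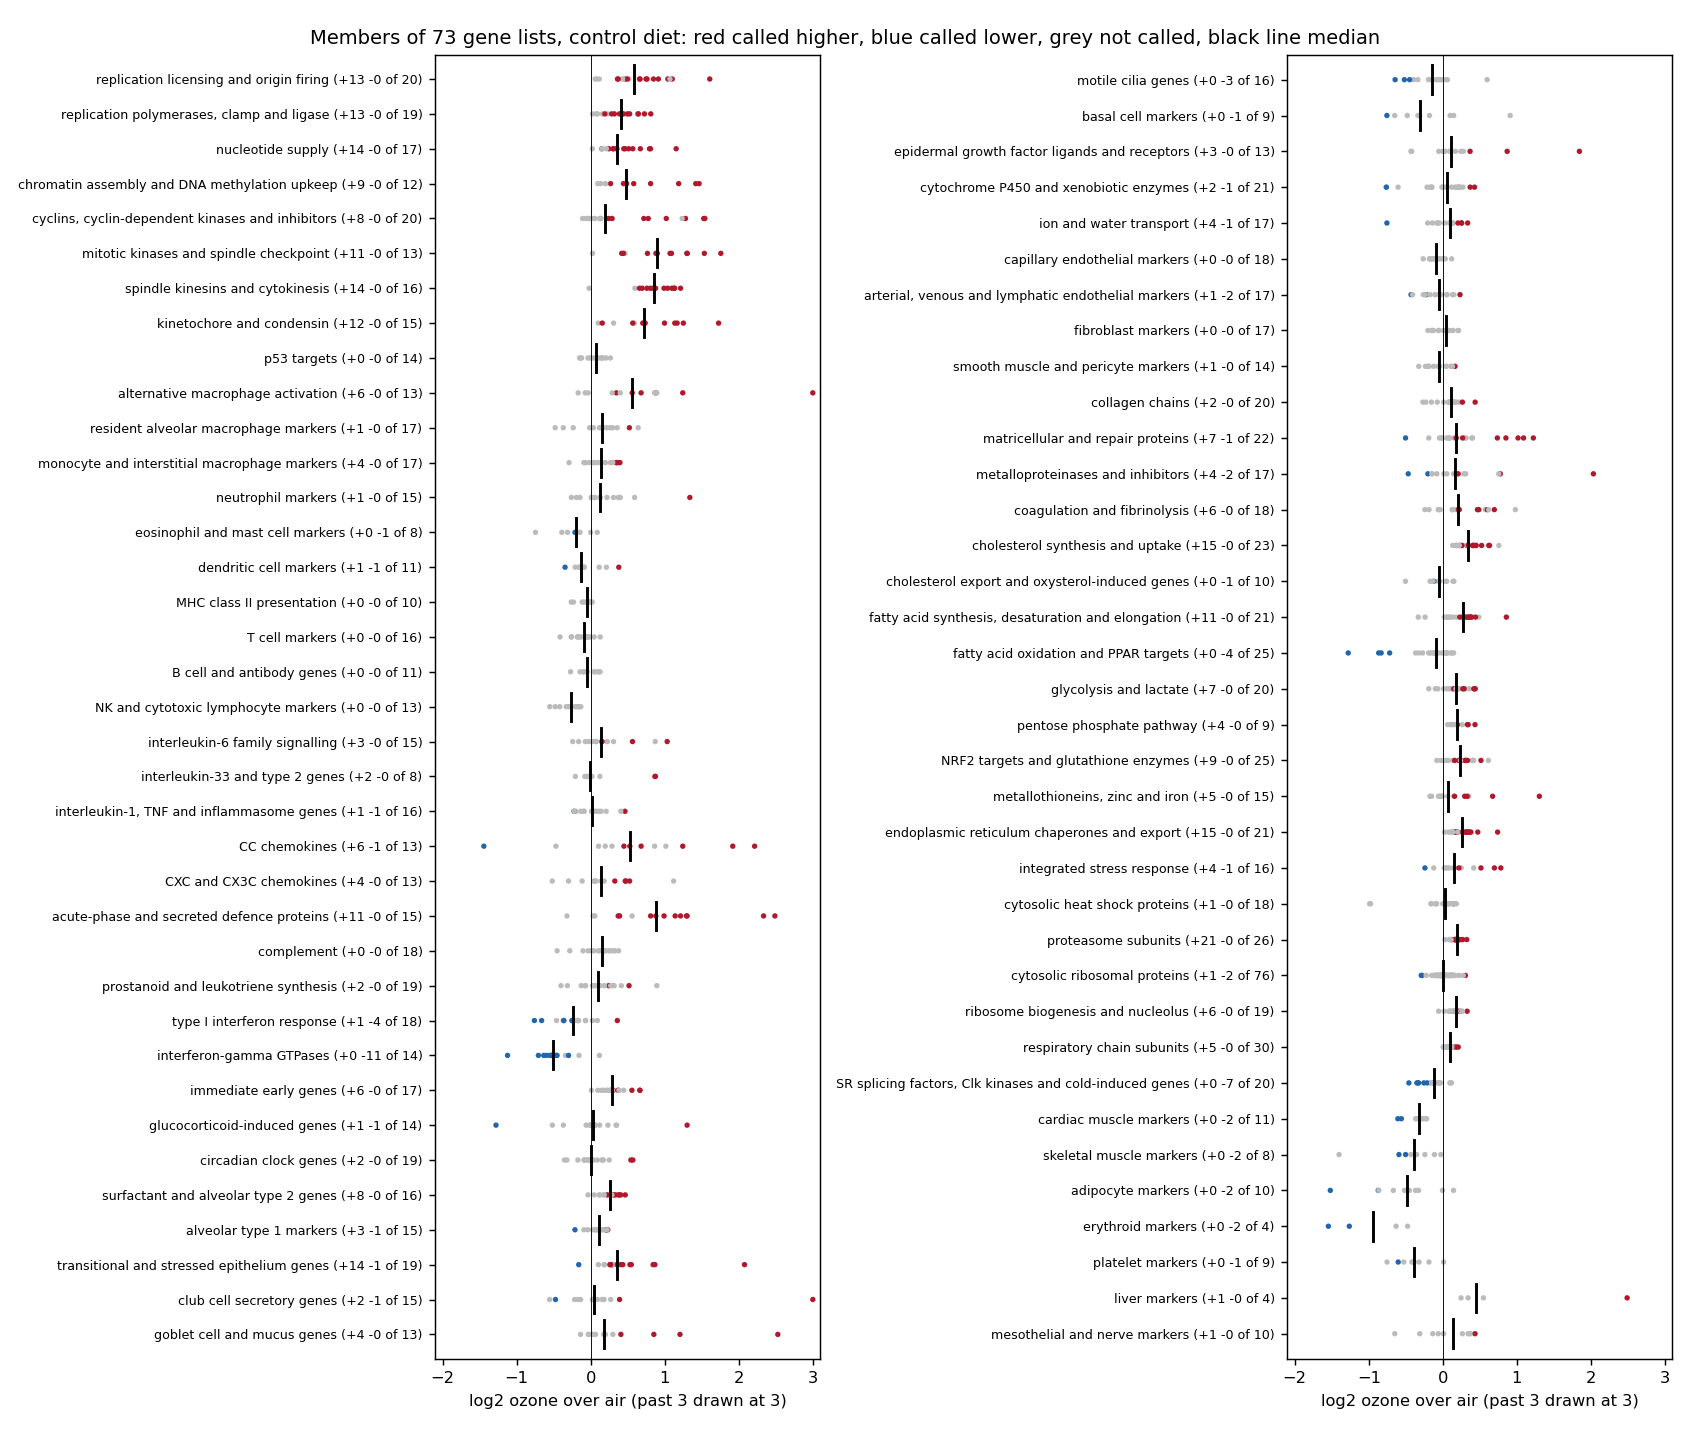
Fitted log2 change, ozone over air (x axis, values past 3 drawn at 3), of each tested member of the 73 gene lists; red points are called higher, blue lower and grey not called, the black line is the list's median, and counts stand beside each name. Replication, mitosis and proteasome lists lie almost wholly to the right, interferon-gamma GTPases and tissue markers such as erythroid and adipocyte lists to the left; NK, T cell and capillary lists also lie mostly left of 0 without a called member, while B cell and fibroblast lists fall on both sides.

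The change was compared with that in the 12 libraries of the DHA diet, which share no library with it. There 2055 genes (12.7%) were called higher after ozone and 1769 (11%) lower. Of the 1442 genes called higher on the control diet, 1414 (98.1%) had the same sign and 1074 (74.5%) were called in the same direction, which is 52.3% of those called higher on the DHA diet. Of the 1271 called lower, 1221 (96.1%) had the same sign and 792 (62.3%) were called, 44.8% of the DHA diet's. The median log2 changes of the 2 sets were 0.25 and -0.33 on the control diet, whose calls chose them, and 0.24 and -0.26 on the DHA diet.

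Side by side, Retnla was 12.5-fold and 8.72-fold higher, Cdc6 3.05-fold and 2.32-fold, Tnc 2.02-fold and 3.66-fold, and Sprr1a 4.22-fold and 8.11-fold, on the control and DHA diets. The differences between diets were not called (adjusted p = 0.911, 0.912, 0.697 and 0.874). On the DHA diet Pdk4 was at 0.721-fold and Plin4 at 0.908-fold, and neither difference between diets was called (adjusted p = 0.822 and 0.658). Clca1 was at 0.493-fold on the DHA diet (adjusted p = 0.435), a difference in log2 change of -3.55 ± 1.12 (adjusted p = 0.658). Over all genes 0 of 16153 (0%) differed between diets with edgeR's quasi-likelihood test, 988 (6.12%) had an unadjusted p under 0.05, and the smallest adjusted p was 0.166. DESeq2 called 5 genes and limma-voom 2. Scn3b, a sodium channel subunit, and Etv5, a transcription factor of type 2 cells, were called by both: Scn3b fell to 0.79-fold on the control diet (adjusted p = 0.00397) and 0.524-fold on the DHA diet, and Etv5 rose 1.22-fold on the control diet (adjusted p = 0.0016) and was at 0.902-fold on the DHA diet (adjusted p = 0.0736).

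**Figure D5:**
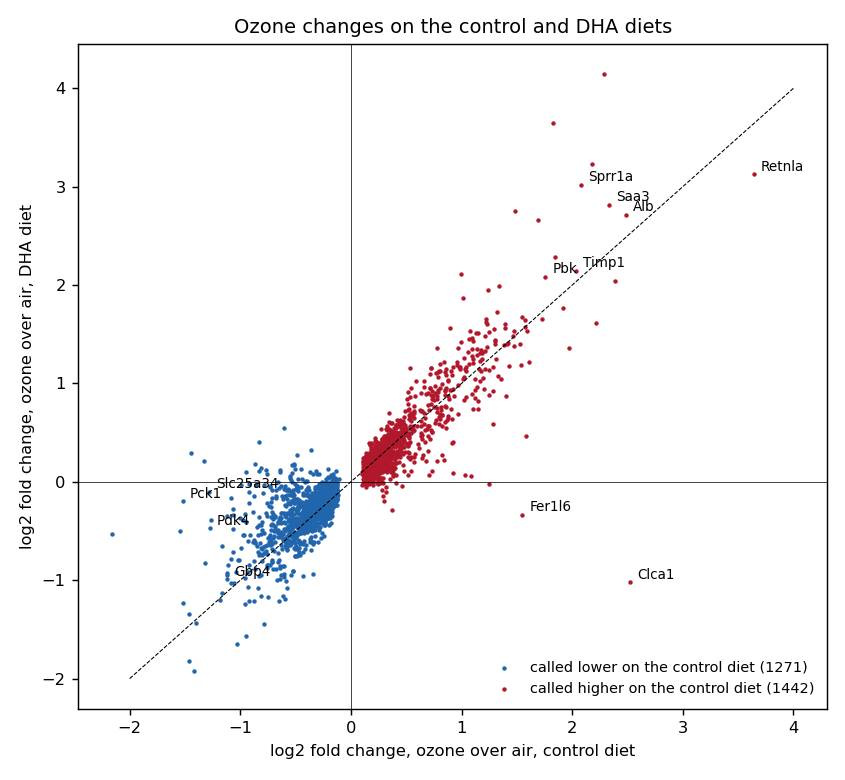
Fitted log2 change on the DHA diet (y axis) against that on the control diet (x axis) for the 1442 genes called higher (red) and 1271 called lower (blue) on the control diet; the dashed line marks equal changes. Points gather along the line, and Clca1 and Fer1l6 lie below 0 on the DHA diet.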

How the data were processed

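Whole-lung RNA from 24 libraries in 4 groups of 6 was sequenced, and 12 libraries are compared here. The authors deposited whole-number counts of reads per gene; the submitters' processing notes name Partek, STAR, HTSeq and the mm39 build, and their versions, the annotation and the handling of strand were not given in the sources used here. Counts were fitted with edgeR 4.0.16 in R 4.3.3 over all 24 libraries and 4 groups, with TMM scaling, a filter (minimum count 10, minimum total 15) and quasi-likelihood tests with 20 residual degrees of freedom. P-values were Benjamini-Hochberg adjusted over all genes tested, and standard errors are the log2 change over the root of F. CPM use TMM-scaled library sizes, and log2 CPM a prior count of 2. The filter and total counts (19145371 to 26156895 per library in the 12 libraries compared) limit precision for genes of few counts. The genes named are the 12 largest increases and decreases among called genes with at least 5 CPM in the higher group, up to 3 called members a list (the 2 most abundant where none was called), other called members of the lists, and 5 genes each by gain, by loss of mean CPM and by difference between diets; S100a8, Adipoq, Apoa1 and Hbb-bs were given as markers, and some genes that this rule names are not reported here. The comparison, the members of the 73 lists (1193 of 1204 genes in the file) and the tests were chosen with earlier results of these data known. Alternatives were DESeq2 1.42.0, limma-voom (limma 3.58.1), RLE scaling, library totals, other filters, a replicate block, the 12 libraries alone, and leaving out libraries. The scripts were tested on simulated data. Promoter windows come from RefSeq on GRCm38.p6 and were matched by symbol.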

Additional observations from a re-analysis of the deposited data

Results flagged for a closer look

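In 522 groups of 6 libraries (genes and list scores on the control diet), 32 had 1 library far from the other 5, which is 6.13%, and chance gives about 1 in 20. Ozone library 1 had 10 of these. It was lowest for C3 (646 CPM, others 1490 to 1730 CPM), C4b (165 CPM, others 450 to 586 CPM) and Gbp9 (48.5 CPM, others 62 to 69.2 CPM). It was highest for Rpa1, a replication protein (80.6 CPM, others 74 to 76.2 CPM), Acsl5, an acyl-CoA synthetase (262 CPM, others 231 to 242 CPM), and Psmd1, a proteasome subunit (182 CPM, others 152 to 163 CPM). Its mean log2 CPM was lowest for complement (5.13, others 5.63 to 5.76) and for mesothelial and nerve markers (2.99, others 3.65 to 3.87). It was highest for interleukin-1, TNF and inflammasome genes (4.23, others 4.08 to 4.13) and the pentose phosphate pathway (6.35, others 6.19 to 6.25).

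Among the other ozone libraries, Pclaf was lowest in library 3 (6.3 CPM, others 10 to 12.2 CPM), as was Lck, a T cell kinase (10.6 CPM, others 13 to 14.3 CPM), and Cxcl14 was highest there (162 CPM, others 129 to 141 CPM). Library 6 was highest for Pck1 (8.03 CPM, others 3.03 to 4.44 CPM), Osm (4.07 CPM, others 2.34 to 2.78 CPM) and Lrg1 (185 CPM, others 96.6 to 117 CPM). Btg2 was lowest in library 5 (167 CPM, others 196 to 207 CPM), C1qa highest in library 2 (48.3 CPM, others 34.5 to 38.2 CPM), and Grpel2 highest in library 4 (37.3 CPM, others 30.7 to 33 CPM).

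Among air libraries, library 5 was highest for Spc24 (4.73 CPM, others 3.56 to 3.95 CPM), Retnlg (5.13 CPM, others 2.21 to 3.1 CPM), C4b (444 CPM, others 325 to 361 CPM), Scd1 (1100 CPM, others 765 to 805 CPM) and the complement score (5.68, others 5.46 to 5.5). Library 4 was highest for Alb (1.96 CPM, others 0.685 to 0.987 CPM) and lowest for the scores of mitotic kinases (1.76, others 2.01 to 2.14) and kinetochore genes (1.83, others 2.06 to 2.17). Library 6 was highest for Egr2 (5.28 CPM, others 3.15 to 3.72 CPM) and Scn3b (82 CPM, others 57.4 to 66.2 CPM) and lowest for the licensing score (2.58, others 2.69 to 2.73). Library 1 was lowest for Serpine2 (88.8 CPM, others 97.2 to 102 CPM) and for the score of CXC and CX3C chemokines (2.7, others 3.24 to 3.47).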

How the results depend on the processing

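With library totals in place of scaling factors, 940 genes were called higher and 1737 lower, so that 35.1% of calls were increases against 53.2% with TMM scaling, and the median log2 change moved from -0.01 to -0.04. Without air replicates 1 to 3, 851 genes were called higher. At an adjusted p under 0.01, 705 were higher and 540 lower. Leaving out 1 library at a time gave 1090 to 1441 genes higher and 953 to 1349 lower. The difference between diets gave 0 genes with edgeR, 5 with DESeq2 and 2 with limma-voom. Same-numbered air and ozone libraries did not deviate together: the mean correlation of their deviations was -0.0499, 0 of 6 pairs were over 0.1, and 2 of 12 libraries were closest to their own number. With the replicate number as a block, 1267 genes were higher and 1060 lower. Of 366 called genes from the lists and rankings, 161 kept their call in every alternative, 275 kept it in every fit without 1 library, and 0 reversed. The cause of these shifts was not tested. Depth limits what can be said of genes under 1 CPM.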
